A study of Mus musculus with 6 samples.

Results

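Heat shock proteins and their co-chaperones were followed in adrenal glands of 2 mouse strains. The members are every probe set of the MG_U74Av2 array whose annotation names exactly 1 gene of the Hsp70 and Hsp110, Hsp90, small heat shock protein, mitochondrial chaperonin, Dnaj, CCT or Bag families, with Dnajc5 left out. The symbol patterns gave 86 probe sets of 58 genes, out of 12488 probe sets on the array. A probe set is a group of short oligonucleotides that together query 1 transcript. The rule itself used names only, but the family was chosen with earlier results of these data known.

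The glands came from BPH mice, a strain with high blood pressure, and BPL mice, a strain with low blood pressure, with 3 arrays for each strain. The labels give no age, sex or treatment, and do not say whether the 3 arrays of a strain came from separate animals or pools, so p-values measure only the spread between these samples, which may be technical. All values below called intensities are the deposited signals on a linear scale. A log2 difference is the BPH mean less the BPL mean of the log2 values, so positive means higher in BPH. The question is which chaperone transcripts differ between a strain with raised and a strain with lowered pressure.

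Chaperones hold unfolded proteins and help them reach or regain their fold. Hsp70 proteins bind short hydrophobic stretches in cycles driven by ATP, J proteins (the Dnaj families) deliver clients and start ATP hydrolysis, and Hsp110 and Bag proteins release the nucleotide so that the client is let go. Hsp90 matures kinases and steroid receptors, the CCT ring folds actin and tubulin, and Hspd1 with its lid Hspe1 folds proteins inside mitochondria. Under heat, oxidants or hormone-driven stress the transcription factor Hsf1 binds heat shock elements, inverted repeats of GAA, and raises a subset of these genes, among which Hspa1a and Hspa1b respond most. In the adrenal, Hsp70 and Hsp90 also hold the receptors for steroids.

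The labelled organ was checked against its markers, with summed intensities of 5 cortex genes between 427138 and 520026 on the 6 arrays. Summed intensities of 5 medulla genes ran from 198326 to 243240 in BPH and from 115489 to 214606 in BPL. Of their 7 tested probe sets 6 were positive, 4 had an unadjusted p under 0.05 and 0 were called by limma, with a median of 0.69, and both probe sets of Pnmt, the enzyme that makes adrenaline, were wholly higher in BPH (0.98 and 1.19). The part of this in the chaperone values was not tested. Summed skeletal muscle markers (10 of 10 genes on the array) stood at 155480 on BPH 1 and 164513 on BPL 2, against 9739 to 23731 on the others. Summed brown fat markers (6 of 6 genes) ran from 39199 to 67459 in BPH and from 102765 to 305888 in BPL. Summed acute response genes (Fos, Jun, Junb, Egr1, Nr4a1 and Gadd45b) ran from 76415 to 111055 in BPH and from 19658 to 33802 in BPL. None of the brown fat and acute response probe sets lay below the floor of 201.3, the lowest value used in the fits, on all arrays. BPH 1 and BPH 2 were washed on fluidics station 2. BPH 3 and the 3 BPL arrays were washed on station 1, BPH 3 with a later recorded hybridisation time. The 3 BPL arrays were scanned before the 3 BPH arrays, so scan order and strain cannot be told apart. Since a gland is a mixture, fewer cells of a type and less RNA per cell cannot be told apart either.

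Most chaperone transcripts stood close to each other in the strains. The values leaned toward higher in BPH, a lean that was not itself tested, and 1 probe set was called. Of the 86 member probe sets, 72 passed the filter on low values and were tested, covering 52 of the 58 genes. Across all 7293 tested probe sets 184 were called at an adjusted p under 0.05 in limma, which is 2.52%, with 1.56% higher and 0.96% lower in BPH. Among the 72 tested members 1 was called, higher in BPH, a share of 1.39% that lies near the background. A positive difference was found for 47 members and a negative one for 25, or 63.9% positive beside 53.3% over all tested probe sets. The median difference was 0.15 for the members and 0.03 for all tested probe sets. At an unadjusted p under 0.05 there were 17 members higher and 3 lower, where 10.8% and 8.5% of all tested probe sets fell. The 3 BPH arrays lay wholly above the 3 BPL arrays for 19 members (26.4%, beside 14.9% of all tested probe sets) and wholly below for 4 (beside 11.6%). No test of the group was made, and probe sets of 1 gene are not independent. When the station entered as a block, so that only BPH 3 and the BPL arrays inform the difference, the member median became 0.18.

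**Figure D1:**
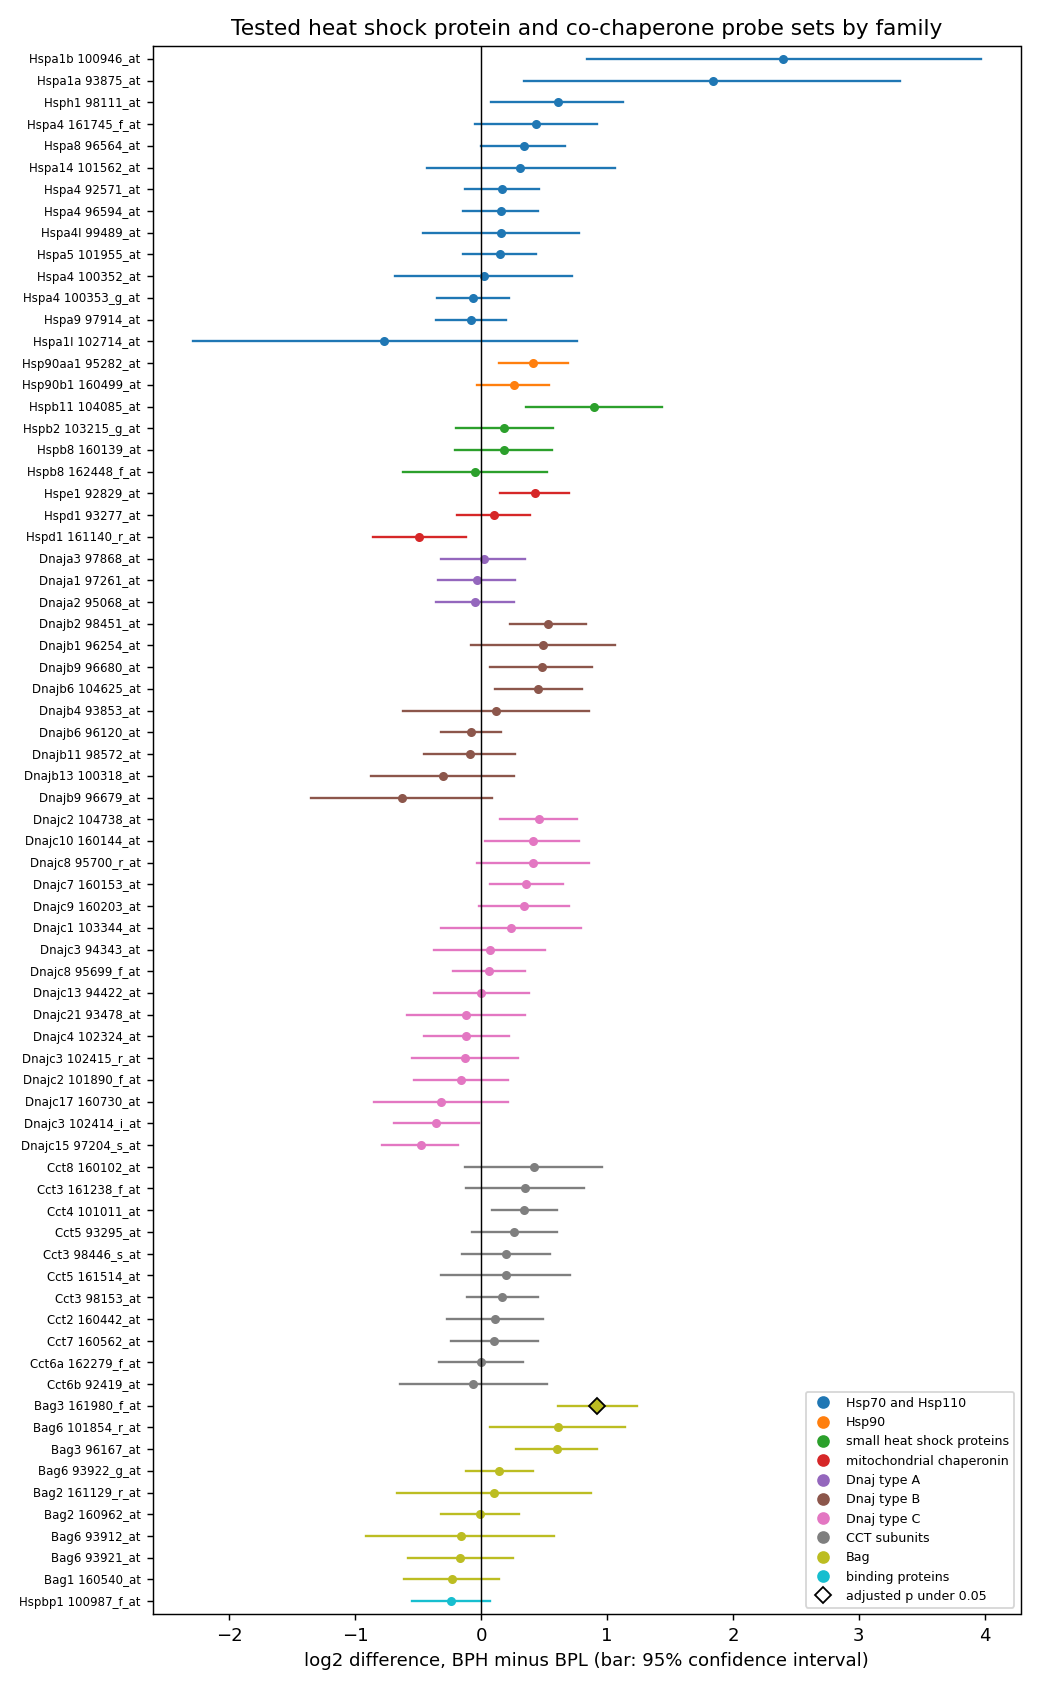
Log2 difference, BPH minus BPL, for the 72 tested member probe sets grouped by family, with points at the estimate and bars for the 95% confidence interval from limma over 3 arrays per strain. The diamond marks Bag3 at 0.92, the 1 member called. Hspa1b at 2.40 and Hspa1a at 1.84 lie farthest to the right and have the wide bars that their spread within BPH gives.

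Bag3 was the called member, and both of its probe sets stood higher in BPH. Bag3 is a co-chaperone that links Hsp70 and the small heat shock protein Hspb8 to selective autophagy, and is itself a target of Hsf1. At the probe set with the suffix f_at its intensities were 8230, 9756 and 10144 on BPH 1, 2 and 3 and 4436, 4778 and 5622 on BPL 1, 2 and 3. Every BPH array lay above every BPL array. The log2 difference was 0.92 (SE 0.14, 95% interval 0.61 to 1.24, adjusted p = 0.0127 in limma), a fold of 1.90. At its other probe set the intensities were 6726, 6670 and 7432 in BPH and 4420.0, 4025 and 5417 in BPL. The groups were again apart, and the log2 difference of 0.60 (SE 0.14, adjusted p = 0.0671 in limma) was not called. It was called without BPL 3, at 0.72 (adjusted p = 0.0251 in limma). The call at the f_at probe set ended without BPH 2 (adjusted p = 0.0712), without BPH 3 (0.0826), with no filter on low values (0.0907) and when the station was a block (0.154, at a log2 difference of 1.04). Over all alternatives its adjusted p ran from 0.00879 to 0.289 and its difference from 0.76 to 1.04. The acute response genes moved in the same direction between the strains, with 6 of 8 tested probe sets called higher, and their part in the result was not tested.

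The other Bag genes, which share the domain that binds the ATPase part of Hsp70, did not pass. Bag6, which guards newly made membrane proteins on their way from the ribosome, had 4 tested probe sets that pointed in different directions. The largest difference was 0.61 at the r_at probe set (SE 0.24, adjusted p = 0.211 in limma), with intensities of 2195, 3177 and 2536 in BPH and 1218, 2079 and 1982 in BPL. At the g_at probe set the arrays were tight, with 3576, 3736 and 3794 in BPH and 3369, 3338 and 3353 in BPL, a log2 difference of 0.14. The groups did not overlap at these 2 probe sets, which were wholly higher in BPH, beside 14.9% of all tested probe sets. At the brighter of the others the values were 3248, 2488 and 3337 in BPH and 3345, 2800.0 and 4070 in BPL, a log2 difference of -0.17, and at the dimmer they ran from 592.1 to 777.0 in BPH and from 632.5 to 1101 in BPL, a log2 difference of -0.16. Both of these overlapped between the strains, and which probe sets reflect the Bag6 transcript was not tested. Bag1, the founding member of the family, differed by -0.23, and Bag2, an inhibitor of the ubiquitin ligase Stub1, by -0.01 and 0.10 at its 2 tested probe sets. Of the 9 tested Bag probe sets 5 were positive, with a median of 0.10, or 0.18 when the station was a block.

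Among the Hsp70 and Hsp110 genes, the 2 stress-induced Hsp70 copies had the largest differences of all members and also the largest disagreement within a strain. Hspa1b had intensities of 1963, 9046 and 20202 on BPH 1, 2 and 3, and 1578, 972.0 and 1578 on BPL 1, 2 and 3. BPH 1 lay just above the highest BPL array, while BPH 2 and BPH 3 lay far above it. The highest BPH array was 10.3 times the lowest, and the highest BPL array 1.62 times the lowest. The log2 difference was 2.40 (SE 0.69, 95% interval 0.84 to 3.97, adjusted p = 0.103 in limma), which did not pass. Hspa1a had 1660, 6242 and 16057 in BPH and 2015, 1420.0 and 1279 in BPL. Here BPH 1 fell within the BPL range, and the spread within BPH was 9.67-fold. Its log2 difference was 1.84 (SE 0.66, 95% interval 0.34 to 3.33, adjusted p = 0.178 in limma). Among all 7293 tested probe sets, 12 had a BPH spread at least as wide as that of Hspa1b, itself included, where the median spread was 1.25-fold. Hspa1a and Hspa1b encode nearly the same protein, their probes can detect each other, and the 2 probe sets are not independent evidence.

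The 2 Hsp70 copies were called when BPH 1 was left out, with log2 differences of 3.33 for Hspa1b (adjusted p = 0.01 in limma) and 2.70 for Hspa1a (adjusted p = 0.0215). Without BPH 3 the differences were 1.65 and 1.06 and neither passed. When the station was a block they were 3.91 (adjusted p = 0.118) and 3.38 (adjusted p = 0.122) and neither passed. The same differences come from BPH 3 alone against the BPL arrays of station 1, where an arm of 1 array gives no spread of its own. Without BPH 1 and BPL 2, the arrays high in skeletal muscle markers, they were 3.10 (adjusted p = 0.00677) and 2.64 (adjusted p = 0.0275). Of the BPH arrays, BPH 1 held the lowest Hspa1b and the lowest summed acute response genes, 76415 against 100163 and 111055, and the highest summed skeletal muscle markers. The part of either in the result was not tested.

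**Figure D2:**
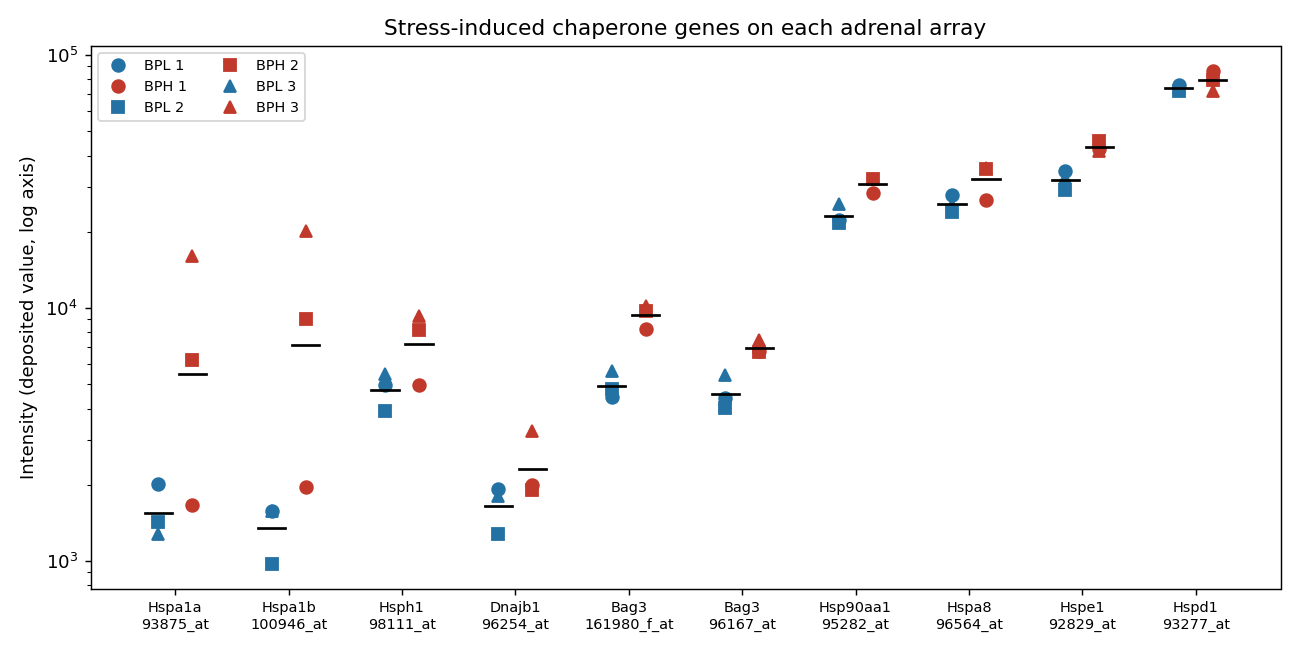
Intensity on a log axis of 10 of the 14 tested probe sets of the fixed stress-induced set, which includes the constitutive Hspa8. BPL arrays are in blue and BPH arrays in red, with a symbol for each array and black lines at the mean of the log values of a strain. Not shown are Hspa5 (log2 difference 0.15), Hsp90b1 (0.26), Hspa9 (-0.08) and the dimmer Hspd1 probe set (-0.49, wholly lower in BPH). Hspa1a and Hspa1b spread widely within BPH, from 1963 to 20202 for Hspa1b, whereas the f_at probe set of Bag3 shows 3 BPH arrays close together between 8230 and 10144.

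**Figure D3:**
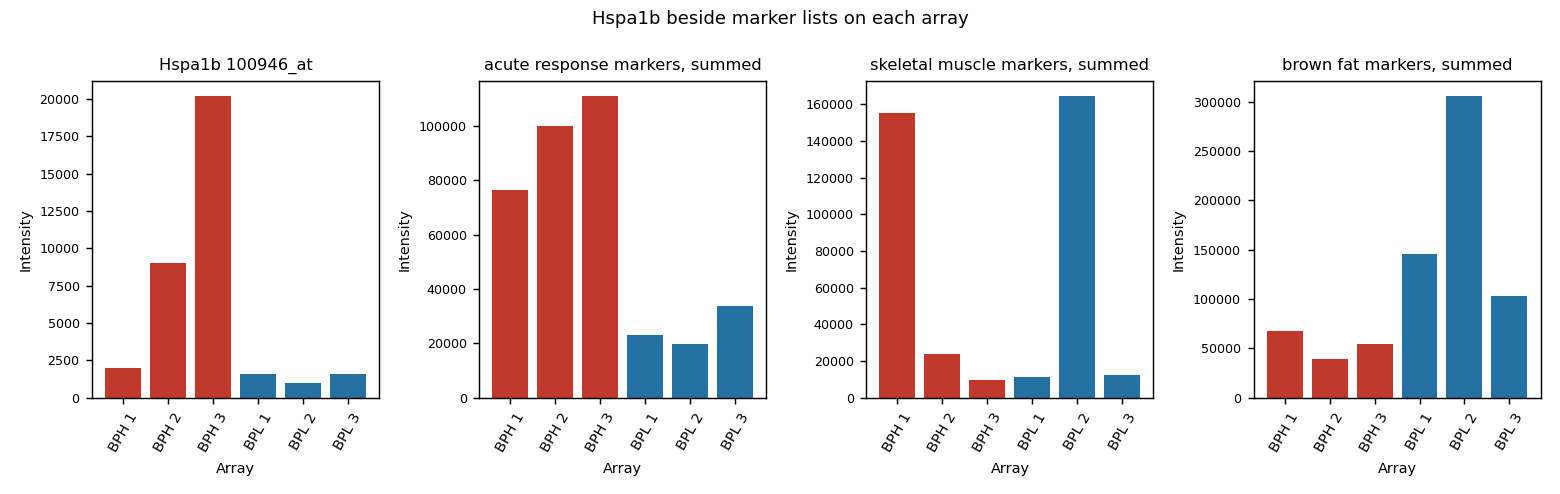
Hspa1b intensity and the summed intensities of acute response, skeletal muscle and brown fat markers on each array, with BPH bars in red and BPL bars in blue. BPH 1 is the lowest BPH array for Hspa1b and for the acute response sum, and BPH 1 and BPL 2 carry the high skeletal muscle sums of 155480 and 164513.

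The promoters of several members carry inverted GAA repeats, the letters of heat shock elements. They are shown because the 2 largest positive differences sat at genes with such a repeat. Windows of 300 bases, 250 before to 50 after each start site, were taken from RefSeq (GRCm38.p6), where 51 of the 58 member genes matched. The pair GAANNTTC or TTCNNGAA, each of which reads the same on both strands, was in the windows of 15 of these genes (29.4%) and of 17% of all 27025 genes in the table, or 15.1% of all 32851 windows. The triplet, a pair with a further inverted GAA unit at the same spacing on either strand, which contains pairs, was in 4 member genes (7.84%) and in 0.662% of all genes. The Hspa1a and Hspa1b windows were identical at 296 of 300 bases, a near-identity that the coding sequences share. Each stretch below lies upstream of the start site and has the repeat in capitals. They are Hspa1a at chr17:34972228-34972285, minus strand (the stretch of Hspa1b at chr17:34959310-34959367, minus strand, is the same), Hsph1 at chr5:149636337-149636394, minus strand, Hspb1 at chr5:135887777-135887854, plus strand, Dnajb6 at chr5:29735827-29735889, plus strand, and Hspe1 at chr1:55088034-55088101, plus strand.
Hspa1a: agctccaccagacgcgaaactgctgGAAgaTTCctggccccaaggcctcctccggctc
Hsph1: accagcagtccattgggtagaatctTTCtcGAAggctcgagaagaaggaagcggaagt
Hspb1: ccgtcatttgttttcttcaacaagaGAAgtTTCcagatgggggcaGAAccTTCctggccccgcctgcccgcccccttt
Dnajb6: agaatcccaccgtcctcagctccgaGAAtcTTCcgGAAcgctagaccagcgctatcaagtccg
Hspe1: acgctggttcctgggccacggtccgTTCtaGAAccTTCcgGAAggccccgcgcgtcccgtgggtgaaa
The pair of Hspa1a begins 104 bases upstream of its start site, and the triplets of Hspe1 begin 89 bases upstream of its own. Hspe1 and Hspd1 lie head to head and 1 of the 2 Hspd1 windows holds the same triplets. In Bag3 the 1 match lies after the start site, as does the triplet of Hsph1, whose stretch above shows its upstream pair. Over the 19 tested probe sets of member genes with a pair the median difference was 0.20, with 14 positive, 6 groups wholly higher in BPH and 1 called. Over the 46 of matched genes without one it was 0.08, with 27 positive, 10 wholly higher in BPH and 0 called. Hspa8, Hspa9, Hsp90aa1, Cct4, Dnajc2, Dnajc11 and Hspb2 had no window and fall in neither set. Among these, Hsp90aa1, Cct4 and Dnajc2 each had a probe set wholly higher in BPH. Of the fixed stress-induced set, Dnajb1, Hspa5 and Hsp90b1 had windows without a pair. Over all tested probe sets 53.3% were positive, 14.9% wholly higher in BPH and 2.52% called. The split was made with the large Hspa1a and Hspa1b differences in view, and it was not tested. These are descriptions of letters in a window and not of binding.

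Hsph1, the Hsp110 that releases nucleotide from Hsp70 and is induced with it, had 4971, 8148 and 9278 in BPH and 4959, 3918 and 5490 in BPL. BPH 1 lay among the BPL arrays and the other BPH arrays above them, the order also seen for Hspa1a. Its log2 difference of 0.61 (SE 0.23, adjusted p = 0.204 in limma) did not pass, and it was 0.97 when the station was a block. Hspa8, the constitutive Hsp70 that is abundant in every cell, had 26715, 35530 and 35672 in BPH and 27835, 23845 and 25402 in BPL. BPH 1 again fell among the BPL arrays, and the log2 difference was 0.34 (SE 0.15, adjusted p = 0.252 in limma).

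Hsp70 proteins of the organelles differed less. Hspa5, the Hsp70 of the endoplasmic reticulum, had 28772, 29443 and 28439 in BPH and 29320.0, 22649 and 26651 in BPL, a log2 difference of 0.15 (95% interval -0.14 to 0.44). Hspa9, the mitochondrial Hsp70, had 25949, 23741 and 23872 in BPH and 25027, 29141 and 23826 in BPL, a log2 difference of -0.08 (95% interval -0.36 to 0.20). Both overlapped between the strains.

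Hspa1l, a Hsp70 of the testis that neighbours Hspa1a, went the other way at 392.8, 661.3 and 992.9 in BPH and 333.4, 1793 and 2130 in BPL. BPL 1 held the lowest value and BPL 2 and BPL 3 the highest, a spread of 6.39-fold within BPL, so the log2 difference of -0.77 (SE 0.67, adjusted p = 0.564 in limma) has a wide interval, -2.29 to 0.76. It was -0.13 when the station was a block and -0.06 without the arrays high in skeletal muscle markers, and leaving out single arrays gave -0.28 (without BPL 3) to -1.62 (without BPL 1). The 5 tested probe sets of Hspa4, a further Hsp110, ran from -0.06 to 0.44. Of these, 2 were wholly higher in BPH, beside 14.9% of all tested probe sets, and neither was called (adjusted p = 0.306 and 0.519 in limma). Hspa4l (0.16) and Hspa14 (0.31), which works at the ribosome, overlapped. The testis gene Hspa2 was not tested, at a mean intensity of 356.8. Of the 14 tested probe sets of the Hsp70 and Hsp110 family 11 were positive, with a median of 0.16.

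Both tested Hsp90 genes stood higher in BPH without passing. Their 2 tested probe sets were wholly higher in BPH, beside 14.9% of all tested probe sets, and so few probe sets do not describe a family. A further Hsp90 gene, Hsp90ab1, had no probe set that names it alone and was not measured. Hsp90aa1, the inducible cytosolic Hsp90, had 28341, 32185 and 32278 in BPH and 22174, 21734 and 25797 in BPL. The strains did not overlap, and the log2 difference was 0.41 (SE 0.12, 95% interval 0.14 to 0.69, adjusted p = 0.113 in limma), or 0.48 when the station was a block. Unlike the Hsp70 copies it was tight within BPH, at 1.14-fold. Hsp90b1, the Hsp90 of the endoplasmic reticulum, had 28638, 30241 and 27071 in BPH and 26421, 21008 and 24768 in BPL. The BPH arrays again lay above, by a smaller log2 difference of 0.26 (SE 0.13, adjusted p = 0.306 in limma). A further Hsp90aa1 probe set was below the floor on 3 arrays and was not tested.

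Small heat shock proteins bind unfolding clients without ATP. Hspb8, the partner of Bag3, was the brightest of them, with 26697, 24323 and 26334 in BPH and 22718, 18093 and 28907 in BPL. It overlapped between the strains, with a log2 difference of 0.18 (95% interval -0.21 to 0.56), and its other probe set gave -0.05. Hspb1, a classical stress-induced member, was too dim to be tested, at 53.7, 49.4 and 299.5 in BPH and 486.1, 379.4 and 113.5 in BPL, with 3 of the 6 arrays below the floor. Hspb2, a form of heart and skeletal muscle, had 2669.6, 2809.6 and 2645 in BPH and 1901, 2695 and 2637 in BPL at its tested probe set, a log2 difference of 0.18. The 2 arrays high in skeletal muscle markers, BPH 1 and BPL 2, were not set apart there.

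Hspb11 carries a heat shock protein name but is a subunit of the transport machinery of cilia. Its intensities were 1540, 1458 and 1561 in BPH and 1073, 675.9 and 741.0 in BPL. The strains were apart, with a log2 difference of 0.90 (SE 0.24, adjusted p = 0.0863 in limma) that did not pass, or 0.94 when the station was a block.

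The mitochondrial chaperonin pair gave different values for its ring and its lid. Hspe1, the lid, had 42255, 45789 and 41609 in BPH and 34871, 29179 and 32494 in BPL. All BPH arrays were higher, and the log2 difference was 0.43 (SE 0.12, 95% interval 0.15 to 0.70, adjusted p = 0.0985 in limma). Hspd1, the ring and the brightest member of all, had 86641, 79545 and 72259 in BPH and 76078, 72239 and 73680 in BPL at its brighter probe set. These overlapped, with a log2 difference of 0.10 (95% interval -0.19 to 0.39). A dimmer Hspd1 probe set had 1353, 1624 and 1532 in BPH and 2337, 2051 and 1959 in BPL, wholly lower in BPH at -0.49 (SE 0.16, adjusted p = 0.15 in limma). The difference between Hspe1 and Hspd1 was not tested. Brown fat is rich in mitochondria, and its summed markers were lower in BPH, and their part in these values was not tested.

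J proteins of type A, which carry the full set of domains of the bacterial DnaJ, had small differences and overlapped between the strains. Dnaja1, the brightest, had 12682, 15273 and 12958 in BPH and 15400, 12063 and 14493 in BPL, a log2 difference of -0.03 (95% interval -0.34 to 0.27). Dnaja2 (-0.05) and the mitochondrial Dnaja3 (0.02) overlapped as well.

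Among the type B J proteins, 5 of 9 tested probe sets were positive, none was called and 3 had an unadjusted p under 0.05. Of the 9, 2 were wholly higher in BPH (22.2%) and 1 wholly lower. Over all tested probe sets 19.3% had an unadjusted p under 0.05, 14.9% were wholly higher and 11.6% wholly lower. Dnajb1, the main partner of the stress-induced Hsp70, had 1995, 1897 and 3249 in BPH and 1929, 1271 and 1806 in BPL. BPH 3 alone stood clear of the BPL arrays, and the log2 difference of 0.49 (SE 0.25, adjusted p = 0.323 in limma) was 0.98 when the station was a block and 0.24 without BPH 3. Dnajb2, a J protein abundant in neurons, had 3593, 3259 and 3728 in BPH and 2514, 2310 and 2495 in BPL, which did not overlap, with a log2 difference of 0.53 (SE 0.13, adjusted p = 0.0729 in limma).

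Probe sets of 2 type B genes disagreed. Dnajb6, which holds back protein aggregation, had 12230, 12571 and 11552 in BPH and 13213, 12205 and 13022 in BPL at its brightest probe set, a log2 difference of -0.08. At its other probe set it was 0.45 (SE 0.15, adjusted p = 0.151 in limma) with no overlap. Dnajb9, a J protein of the endoplasmic reticulum, had 4168, 6478 and 6132 in BPH and 3787, 4298 and 3758 in BPL at its brighter probe set, a log2 difference of 0.48 (SE 0.18, adjusted p = 0.192 in limma) with overlap. At the dimmer one it had 671.7, 451.0 and 545.6 in BPH and 685.3, 912.4 and 982.3 in BPL, a log2 difference of -0.63 (SE 0.32, adjusted p = 0.315 in limma), wholly lower in BPH. Which of them reflects each transcript was not tested. Dnajb4 (0.12), Dnajb11 (-0.09) and Dnajb13 (-0.30) overlapped, and Dnajb3, Dnajb5 and Dnajb8 had no tested probe set. The family median was 0.12, or 0.39 when the station was a block and -0.02 without BPH 3.

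Type C J proteins share the J domain alone and serve many sites, and of 16 tested probe sets 9 were positive, with a median of 0.03. None was called. Of the 16, 4 were wholly higher in BPH (25%, beside 14.9% of all tested probe sets) and 2 wholly lower (beside 11.6%). Dnajc15, a mitochondrial inner membrane protein that restrains the respiratory chain, had 6236, 5436 and 5774 in BPH and 8020, 9343 and 7143 in BPL. It was wholly lower in BPH, with a log2 difference of -0.48 (SE 0.13, adjusted p = 0.0947 in limma). BPL 2 was highest for it and also had the highest brown fat sum, whose part in this was not tested. Dnajc3, an inhibitor of stress kinases in the endoplasmic reticulum, had 4691, 4584 and 4118 in BPH and 6735, 5702 and 4828 in BPL at its i_at probe set, a log2 difference of -0.36 (SE 0.15, adjusted p = 0.236 in limma). This probe set was wholly lower in BPH, and the other tested probe sets of Dnajc3 overlapped, at -0.13 and 0.07. Dnajc17 had 1191, 960.7 and 943.5 in BPH and 1174, 1097 and 1622 in BPL, a log2 difference of -0.32 (SE 0.23, adjusted p = 0.49 in limma).

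In the other direction, Dnajc2, which binds nascent chains at the ribosome, was wholly higher in BPH by 0.46 (adjusted p = 0.111 in limma) at one probe set and gave -0.16 at the other. Dnajc7, a shuttle between Hsp70 and Hsp90, differed by 0.36 (adjusted p = 0.169), the endoplasmic reticulum reductase Dnajc10 by 0.41 (adjusted p = 0.221) and Dnajc9, a J protein that also handles histones, by 0.34 (adjusted p = 0.288), each with no overlap. Dnajc8, a splicing factor, was the brightest, at 16378, 14865 and 13771 in BPH and 14365, 12822 and 15908 in BPL, with a log2 difference of 0.06, and 0.41 at its second probe set. Dnajc1 (0.24), Dnajc4 (-0.12), Dnajc13 (0.00) and Dnajc21 (-0.12) overlapped, and Dnajc11 was not tested.

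The 8 CCT genes measured here encode subunits of the ring that folds actin and tubulin, and most of their probe sets were positive without passing. Of 11 tested probe sets 9 were positive, with a median of 0.20, a range from -0.06 to 0.42, none called and 1 with an unadjusted p under 0.05. Of the 11, 2 were wholly higher in BPH (18.2%), beside 14.9% of all tested probe sets. The median was 0.09 without BPL 2 and 0.08 without both arrays high in skeletal muscle markers. Cct5, the brightest, had 17906, 16251 and 17088 in BPH and 15017, 11573 and 16558 in BPL, a log2 difference of 0.26 (SE 0.15, adjusted p = 0.364 in limma) that was 0.08 without the arrays high in skeletal muscle markers. Cct4 had 13309, 12996 and 13695 in BPH and 10969, 9541 and 11130 in BPL. Its arrays did not overlap, and the log2 difference was 0.34 (SE 0.11, adjusted p = 0.148 in limma). The lowest CCT values mostly came from BPL 2, where the median deviation of the family from the mean of the 6 arrays was -0.31, against -0.02 to 0.16 on the other 5. Cct8 (0.42), Cct3 (0.17 to 0.35 over 3 probe sets), Cct2 (0.11) and Cct7 (0.10) were positive, while Cct6a (-0.00) and the testis form Cct6b (-0.06) were level. Hspbp1, a nucleotide exchange factor of Hsp70, was the 1 member named for binding a heat shock protein, with 2973, 2781 and 3143 in BPH and 3858, 3133 and 3549 in BPL, a log2 difference of -0.24 (SE 0.14, adjusted p = 0.371 in limma).

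Array by array, BPL 2 stood apart from the rest. It held the lowest value of 36 of the 72 tested members, against 6 to 8 on each other array, and the median deviation of the members was -0.19 there. BPH 2 and BPH 3 held the highest value of 17 and 18 members, and BPH 1 of 8. The same counts were not made over all tested probe sets, so they are not shown to be particular to the chaperones. The median deviation was -0.02 on BPH 1, 0.15 on BPH 2 and 0.10 on BPH 3, and -0.02 and -0.06 on BPL 1 and BPL 3. BPL 2 also held the highest sums of skeletal muscle and brown fat markers and the lowest sums of cortex (427138) and medulla (115489) markers, and their part in its low chaperone values was not tested. Without BPL 2 the median difference of the members was 0.08.

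**Figure D4:**
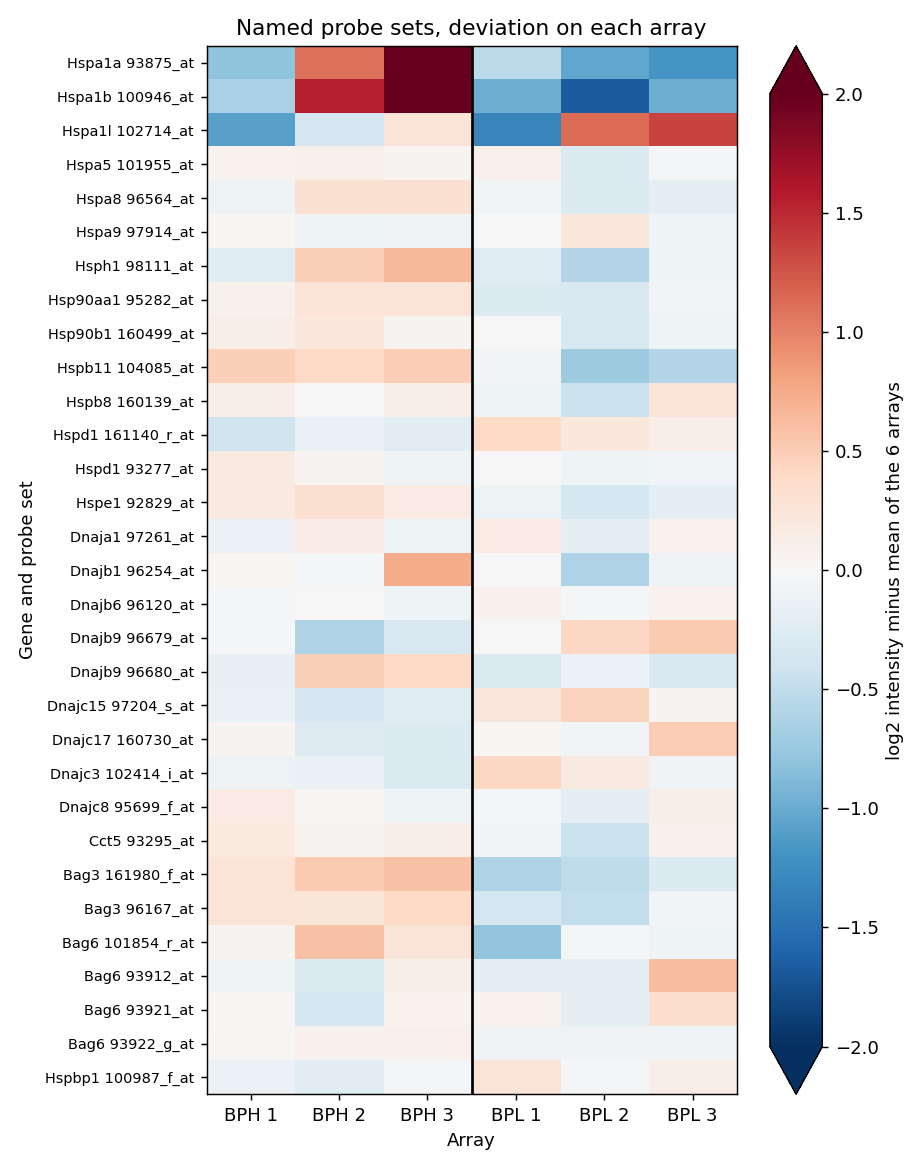
Deviation of log2 intensity from the mean of the 6 arrays for the named probe sets that were tested, in rows, on each array, in columns, with red for higher and blue for lower. Hspa1a and Hspa1b are red on BPH 2 and BPH 3 and blue on BPH 1, whereas the 2 Bag3 probe sets are red on all 3 BPH arrays.

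Chaperones of the endoplasmic reticulum answer to another signal, the unfolded protein response, whose element, a CCAAT and a CCACG with a spacer of fixed length between them (searched on both strands), was in the promoter windows of Hspa5, Hsp90b1 and Dnajc3. It was in 0.137% of all genes of the table. The stretches of Hspa5 (chr2:34772000-34772068, plus strand) and Dnajc3 (chr14:118937802-118937870, plus strand) are shown with the element in capitals, as the counterpart to the heat shock elements.
Hspa5: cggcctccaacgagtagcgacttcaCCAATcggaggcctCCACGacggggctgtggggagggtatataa
Dnajc3: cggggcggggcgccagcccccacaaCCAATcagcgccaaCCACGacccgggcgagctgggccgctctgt
The 5 tested probe sets of these 3 genes ran from -0.36 to 0.26, with a median of 0.07 and none called.

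Partners of the chaperones outside these families were level for the most part. Of a list of 55 such genes, 43 were on the array and 50 probe sets of 38 genes were tested, with a median difference of 0.01 and 26 positive. In limma 1 was called higher and 1 lower in BPH, beside 2.52% called of all tested probe sets. Serpinh1, the collagen chaperone of the endoplasmic reticulum, had 7479, 8724 and 8809 in BPH and 12074, 12449 and 11813 in BPL, a log2 difference of -0.54 (SE 0.12, adjusted p = 0.0472). This call was lost whichever array was left out (adjusted p from 0.0502 to 0.158) and when the station was a block (0.506). Ubqln1, which carries ubiquitin-tagged proteins to the proteasome, had 7379, 7601 and 7539 in BPH and 5391, 4256 and 5101 in BPL at one probe set, a log2 difference of 0.62 (SE 0.13, adjusted p = 0.0426). This call held without BPL 3 (adjusted p = 0.0448) and was lost without any other array (0.0615 to 0.17) and when the station was a block (0.402). The other Ubqln1 probe set gave -0.03.

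Among the 20 tested probe sets of Hsp90 and Hsp70 partners 0 were called by limma, 2 had an unadjusted p under 0.05 and 10 were positive, with a median of -0.00. Over all tested probe sets 19.3% had an unadjusted p under 0.05. Stip1, which hands clients from Hsp70 to Hsp90 and is a known Hsf1 target, differed by 0.19, and the immunophilin Fkbp4 by -0.07 and 0.00. Ppid (0.45, adjusted p = 0.155 in limma), the myosin chaperone Unc45a (0.44, adjusted p = 0.175) and a probe set of Tomm70a (0.18, adjusted p = 0.454) were wholly higher in BPH. These are 3 of the 20, a share near the 14.9% of all tested probe sets. Fkbp5, an Hsp90 partner induced by glucocorticoids, differed by -0.04. Of the transcription factors, Hsf1 had no probe set that names it alone and was not measured. Hsf2 and Hsf4 were below the floor on all 6 arrays, and Hsbp1, which holds Hsf1 back, differed by -0.19. Sqstm1, the autophagy receptor that works with Bag3, had 27042, 23517 and 21611 in BPH and 32530, 26183 and 38342 in BPL, a log2 difference of -0.42 (SE 0.16, adjusted p = 0.207), so it did not follow the direction of Bag3. Tcp1, the CCT subunit outside the naming rule, differed by 0.35 (adjusted p = 0.528), and by -0.00 without BPL 1.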

How the data were processed

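Transcripts of 6 adrenal samples were measured on Affymetrix MG_U74Av2 arrays. The deposited values are intensities, 1 per probe set and array, on a linear scale. How the signals were computed from the scans is not stated in the labels or files read here. Their means after trimming 2% at each end lay between 2501.31 and 2501.50, so the deposited arrays share a common level, and no further scaling was applied. The array run files give the fluidics station, the hybridisation time and the scan time, from which the scan order was taken.

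Values under the 20th percentile of the table (201.3) were set to it and taken to log2, which understates changes of dim genes. Probe sets with a mean log2 value under that of the 40th percentile (668.1) and 66 controls were left out. limma 3.58.1 (R 4.3.3; lmFit, eBayes with trend) compared 3 BPH with 3 BPL arrays over 7293 probe sets, two-sided, with Benjamini-Hochberg adjustment over all of them, and was tested on simulated data. The number of arrays limits the precision.

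Symbols came from the platform annotation, in which 10855 probe sets name 1 gene, 396 several and 1237 none. Of the 10855, 10839 matched a RefSeq table of GRCm38.p6 by gene number, and no member changed its symbol. The 2 probe sets that name Dnajc19 also name a pseudogene and are no members. Genes named with all array values are called members, the 6 largest differences in each direction, the brightest of each family, probe sets of 1 gene that disagree in sign with one over 0.5, and a fixed stress-induced set. Others are named by family. Dnajb2, Cct4 and Hspb2 and the partners with array values were chosen after their values were seen. The members and lists were chosen with earlier results of these data known. Same-numbered arrays did not deviate together (r of -0.22, -0.08 and 0.01), so the numbers do not pair the samples.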

Additional observations from a re-analysis of the deposited data

How the results depend on the processing

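The median difference of the members stayed between 0.08 and 0.18 under all alternatives run. The count of called members, 1 at first, was 0 with no filter on low values, 0 with the station as a block, 0 at an adjusted p under 0.01, 2 with the filter at the 60th percentile, 2 within station 1 (Hspa1a and Hspa1b, from an arm of 1 BPH array, so no test of the strain) and 3 without the 2 arrays high in skeletal muscle markers. When 1 array was left out it ran from 0 to 3. Bag3 made up the call wherever the count was 1. The count over all tested probe sets, 184 at first, was 52 with no filter, 83 without the intensity trend, 18 with the station as a block, 7 within station 1, with the same arm of 1, and 48 at an adjusted p under 0.01, and ran from 42 to 361 when 1 array was left out.

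Family medians moved by more than their spread between arrays in these cases. Taking the station as a block, or only the arrays of station 1, gave -0.03 for the mitochondrial chaperonin, 0.39 for type B J proteins and 0.18 for Bag. For the mitochondrial chaperonin the median was 0.20 under quantile normalization and 0.26 with the brightest probe set of each gene. For type B J proteins it was -0.08 with no filter, 0.47 with the filter at the 60th percentile and 0.41 without the arrays high in skeletal muscle markers, where Bag had 0.16. Leaving out 1 array gave type B J proteins -0.06 to 0.34, Bag 0.01 to 0.16, type C J proteins -0.08 to 0.07 and small heat shock proteins 0.14 to 0.30. The cause was not tested.

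With the replicate number as a block 1 member was called, at a member median of 0.15, and 124 probe sets in all. Since the labels do not say that a shared number marks a pair, this block says nothing about pairs. No sample group has over 3 arrays, so single outlying arrays were not tested. Dim members such as Hspb1 are limited by the floor.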
